A study of Mus musculus with 12 samples.

Results

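The genes described here are 41 mouse genes known to be imprinted, grouped by the parental allele that is expressed and by the chromosomal cluster to which they belong. They were chosen by name, and each gene was represented by its brightest probe. A probe was matched for 39 of the 41 genes, and 38 of them could be tested among the 29546 genes measured in the series. No probe was matched to H19 or Rian, and in no group did the probe for Kcnq1 lie well above background on both arrays. Of the 38 tested genes, 21 were classed as paternally expressed and 12 as maternally expressed, from general knowledge of mouse imprinting. Another 5 (Copg2, Ube3a, Ddc, Gnas and Commd1), whose parental expression depends on tissue or transcript or is only a bias, were kept apart. Genes left in the classes may also show such dependence, and whether the classes hold in the cells used here was not tested. The RNA came from E14 cells, a male mouse embryonic stem (ES) cell line grown on gelatin with serum and LIF and without feeder cells. All cells were transfected with esiRNAs, which are pools of short RNAs cut from a long one, using lipofectamine, and were harvested 48 hr later. Control cells received esiRNAs against EGFP (EGFP KD), and the other groups received esiRNAs against Dnmt1, Tet1, Mbd3, Mbd2 or Chd4. Each of the 6 groups had 2 one-colour Agilent arrays, described in the study's methods as biological replicates, so 12 arrays were available in all.

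An imprinted gene is transcribed mainly from the copy inherited from 1 parent. The choice is set by an imprinting control region, a stretch of DNA that is methylated in only the egg or only the sperm and keeps that mark through the divisions of the embryo. In several clusters the unmethylated allele produces a long noncoding RNA, such as Airn or Kcnq1ot1, that silences neighbouring genes on the same chromosome, so paternally and maternally expressed genes lie side by side. Dnmt1 copies DNA methylation after replication, Tet1 oxidizes methylated cytosine, Mbd2 and Mbd3 are alternative subunits of the NuRD complex, and Chd4 is the ATPase of that complex. The comparisons therefore ask whether depletion of a writer, an oxidizer or a proposed reader of DNA methylation altered the total mRNA of imprinted genes. The arrays do not tell the parental alleles apart, and in a bulk sample fewer expressing cells and less RNA per cell cannot be told apart.

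The promoters of 4 genes are shown because Slc22a18 and Phlda2 were the only ones of these 38 genes called in any KD, Kcnq1ot1 gives rise to the noncoding RNA of the same cluster, and Dlk1 differed between Mbd3 KD and Dnmt1 KD. Each sequence runs from 250 bases before to 50 bases after a transcription start, read 5′ to 3′ along the gene's strand from RefSeq (GRCm38.p6), and capitals mark CG dinucleotides, the sites of DNA methylation. The windows are chr7:143473539-143473838 (plus strand) for Slc22a18, chr7:143502475-143502774 (minus strand) for Phlda2, chr7:143296498-143296797 (minus strand) for Kcnq1ot1 and chr12:109452573-109452872 (plus strand) for Dlk1.
Slc22a18: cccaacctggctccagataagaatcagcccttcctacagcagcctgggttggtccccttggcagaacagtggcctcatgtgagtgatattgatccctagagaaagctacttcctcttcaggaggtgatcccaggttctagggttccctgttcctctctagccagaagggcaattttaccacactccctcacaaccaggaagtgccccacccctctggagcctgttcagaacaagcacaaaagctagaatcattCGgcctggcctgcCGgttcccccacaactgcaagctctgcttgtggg
Phlda2: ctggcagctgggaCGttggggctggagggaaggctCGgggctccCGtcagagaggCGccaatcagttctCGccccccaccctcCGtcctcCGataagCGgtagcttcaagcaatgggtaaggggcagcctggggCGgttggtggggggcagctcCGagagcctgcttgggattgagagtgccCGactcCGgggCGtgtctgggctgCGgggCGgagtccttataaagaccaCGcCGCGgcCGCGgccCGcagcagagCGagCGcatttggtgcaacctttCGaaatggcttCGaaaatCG
Kcnq1ot1: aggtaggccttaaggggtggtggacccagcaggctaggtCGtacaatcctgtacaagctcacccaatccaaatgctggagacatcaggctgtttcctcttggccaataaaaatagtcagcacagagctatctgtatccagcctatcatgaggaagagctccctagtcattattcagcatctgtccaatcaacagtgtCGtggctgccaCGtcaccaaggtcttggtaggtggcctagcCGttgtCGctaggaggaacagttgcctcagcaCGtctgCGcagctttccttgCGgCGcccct
Dlk1: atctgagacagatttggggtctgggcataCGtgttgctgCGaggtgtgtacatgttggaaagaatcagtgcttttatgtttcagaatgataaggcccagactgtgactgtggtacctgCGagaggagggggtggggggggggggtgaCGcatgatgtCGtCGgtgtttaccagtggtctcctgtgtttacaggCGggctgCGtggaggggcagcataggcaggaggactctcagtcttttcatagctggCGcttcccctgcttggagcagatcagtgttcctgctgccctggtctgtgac
Slc22a18 and Phlda2 are neighbours in the Kcnq1 cluster, yet their promoter windows differed in CG content, with 2 CG sites in the Slc22a18 window and 26 in the Phlda2 window. The windows of Kcnq1ot1 and Dlk1 held 9 CG sites each. Across the imprinted genes, 33 of 38 tested genes had 50 promoter windows, whose median was 15 CG sites, and the median over all 32851 windows of the table was 7. The windows ranged from 1 CG site (1 start of Meg3 and 1 of Osbpl5) to 45 (Grb10), and 30% of them held at least 20 CG sites, as did 26.5% of all windows. The letters TGCCGC, which the imprint-protecting factor Zfp57 is known to bind when methylated, occurred on either strand in 13 of the 50 windows (26%) and in 11.6% of all windows. None of the 4 windows printed here contained it. The letters include a CG, and the shares were not matched for CG content. Some genes had several windows, which partly overlapped for Mest and Gnas, so the windows are not independent. Whether promoters of imprinted genes hold more of these sites was not tested.

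Levels are given as log2 of the processed signal divided by the 75th percentile of the array, which lay between 1784.5 and 2451.6, and the lowest level was set at -4.86. The share of probes well above background ran from 76.9% to 95.2% by array, and 35 of the 38 imprinted genes were well above background on all 12 arrays, with 0 saturated. The exceptions were Zim1, Rtl1 and Nap1l5, which lay at or near the lowest level. The mRNA targeted by the esiRNA was reduced on both arrays for Mbd3 (log2 fold change -2.96, SE 0.14, limma adjusted p = 0.0039), Chd4 (-1.28, SE 0.24, adjusted p = 0.042) and Dnmt1 (-1.99, SE 0.39, adjusted p = 0.39). For the other KDs the targets went against a label. Relative to the EGFP KD mean, a Tet1 probe differed by -1.81 on Tet1 KD replicate 2 and by -0.02 on replicate 1 of the same label, and by -1.79 on the first array labelled Mbd2 KD. An Mbd2 probe was low on Mbd2 KD replicate 2 (-1.77) and also on Tet1 KD replicate 1 (-1.75), whereas the brighter Mbd2 probe differed by -0.07 and -0.20 on these arrays. All arrays were kept under their labels. The calls, the parental difference and the named genes of these KDs are also given without those replicates 1, and the other values of these KDs include them. Slide 1 held replicate 1 of the control, Mbd2 KD, Mbd3 KD and Dnmt1 KD groups, slide 2 held EGFP KD replicate 2, both Tet1 KD arrays and Chd4 KD replicate 1, and slide 3 held the rest and no control. Of 8 ES cell markers, 4 (Pou5f1, Zfp42, Esrrb and Dppa5a) were saturated on some array, Sox2, Klf4 and Tfcp2l1 were well above background on all arrays, and the probe for Nanog lay near the lowest level in every group. None of the 8 passed the test in any KD, with 1 at an unadjusted p under 0.05 in Mbd3 KD and 0 in the other KDs.

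Of the 38 imprinted genes, 2 passed the test in any comparison with EGFP KD. Mbd3 KD raised 1 of them (Slc22a18), where 0.762% of all genes tested had a limma adjusted p under 0.05. Chd4 KD lowered 1 (Phlda2), where 3.2% of all genes were called. No imprinted gene was called when Dnmt1, Tet1 or Mbd2 was targeted, where limma called 0% of all genes. Without replicate 1 of Tet1 KD and of Mbd2 KD, 0 imprinted genes were called in each KD. At an unadjusted limma p under 0.05, the imprinted genes numbered 9 for Chd4 KD (12.8% of all genes), 4 for Mbd3 KD (9.66%), 2 for Dnmt1 KD (4.67%), 1 for Mbd2 KD (2.06%) and 0 for Tet1 KD (2.85%). Both KD arrays lay outside the range of both EGFP KD arrays for 19 imprinted genes (50%) in Chd4 KD, where 38.1% of all genes did so, and for 14 (36.8%) in Mbd3 KD, where 30.1% did. The same was true of 16 (42.1%) under Tet1 KD against 35.3% of all genes, 11 (28.9%) under Dnmt1 KD against 21.1%, and 7 (18.4%) under Mbd2 KD against 22.9%. The 5 KDs share the same EGFP KD arrays. The spread between the 2 arrays of a group, expressed as the SE of a fold change, had a median of 0.25 over the imprinted genes and 0.27 over all genes.

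**Figure D1:**
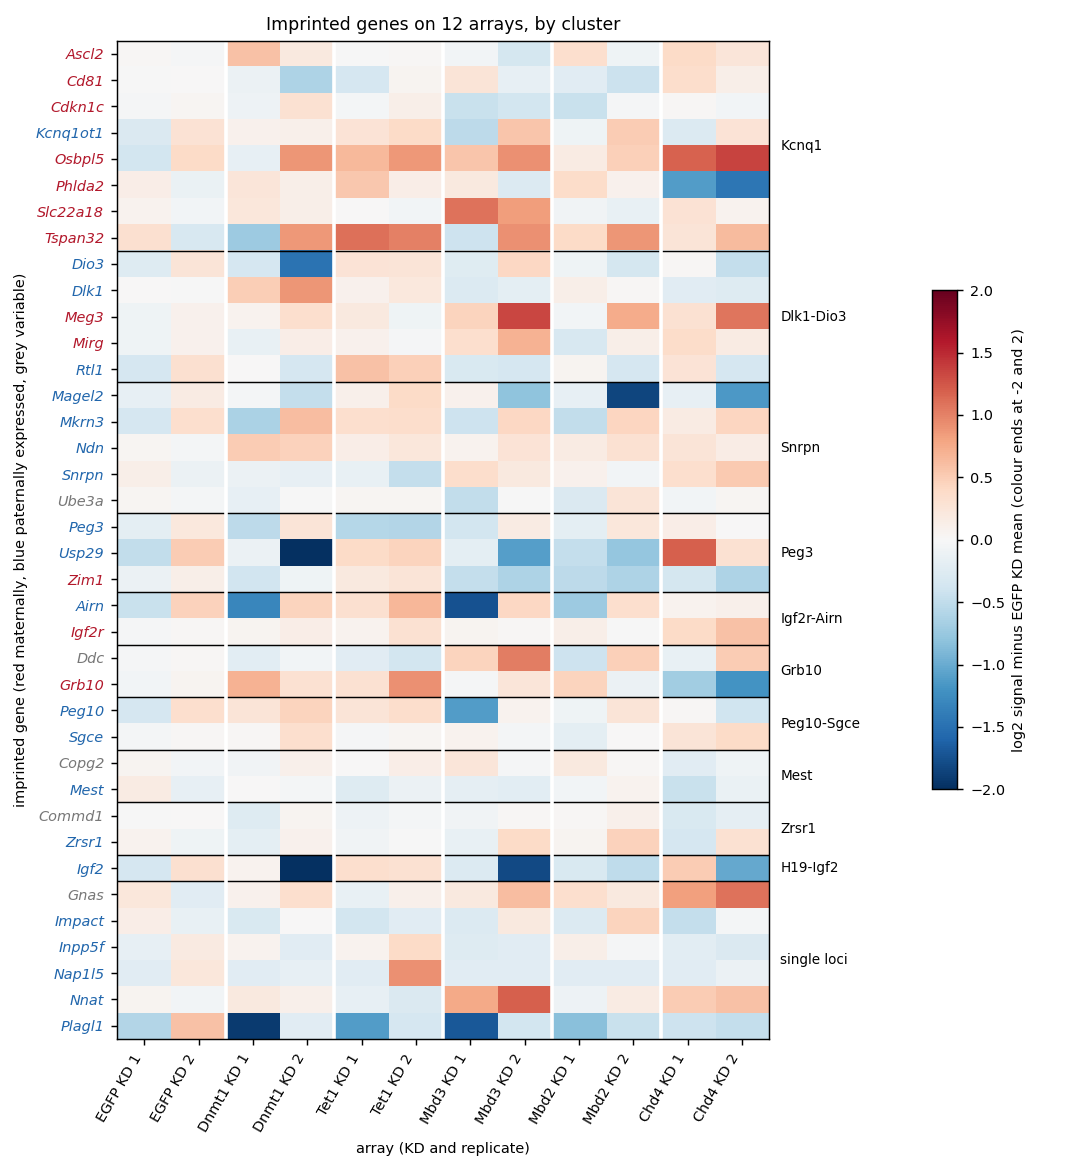
Log2 signal of each tested imprinted gene (rows, grouped by cluster) minus its EGFP KD mean on each of the 12 arrays (columns, 2 per group), with red higher and blue lower; gene names are red for maternally, blue for paternally expressed genes and grey for the rest. Slc22a18 stood out in both Mbd3 KD arrays and Phlda2 in both Chd4 KD arrays, whereas Igf2, Usp29, Airn and Plagl1 differed mainly between replicates.

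The Kcnq1 cluster on chromosome 7 held both called genes. Slc22a18, a maternally expressed transporter of the solute carrier family, had log2 levels of 0.77 and 0.53 in Mbd3 KD and of -0.24 and -0.37 in EGFP KD. Its levels were -0.02 and -0.24 in Chd4 KD, -0.09 and -0.19 in Dnmt1 KD, -0.38 and -0.46 under Mbd2 KD, and -0.30 and -0.37 under Tet1 KD. The Mbd3 KD arrays were thus the highest of the 12, and no array of another group reached them. The log2 fold change in Mbd3 KD was 0.96 (SE 0.12), or 1.94-fold, with a limma adjusted p of 0.028. With slide as a block it was 1.02 (adjusted p = 0.049), and within the slide that held both groups it was 1.02. In Chd4 KD the same gene differed from EGFP KD by 0.18 (SE 0.12, adjusted p = 0.7).

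Because a call in one KD and not in another is not a difference, the KDs were compared directly. Slc22a18 was lower in Chd4 KD than in Mbd3 KD by a log2 difference of -0.78 (SE 0.12, limma adjusted p = 0.031), in a contrast where 1.41% of all genes were called, but the call was lost whichever array was left out. It was higher in Mbd3 KD than in Mbd2 KD by 1.07 (adjusted p = 0.021), where 0.521% of genes were called, and higher than in Dnmt1 KD by 0.79 (adjusted p = 0.045), where 0.66% were called. The difference from Dnmt1 KD was also lost whichever array was left out. The difference from Mbd2 KD was lost without either array of EGFP KD, Tet1 KD or Mbd2 KD and without Mbd3 KD replicate 1. None of the 3 passed without the pair of Tet1 KD replicate 1 and Mbd2 KD replicate 1. Slc22a18 was represented by 1 probe. Its call in Mbd3 KD was kept in 8 of 24 alternatives, with log2 fold changes between 0.84 and 1.08. It was lost when any single array other than those of Chd4 KD was left out, with adjusted p between 0.05 and 0.13, and when replicate 1 of Tet1 KD and of Mbd2 KD were left out together (adjusted p = 0.12).

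Phlda2, a maternally expressed protein with a pleckstrin homology domain that restrains growth of the placenta, had log2 levels of 0.54 and 0.20 in Chd4 KD. It lay at 1.79 and 1.51 in EGFP KD and at 1.84 and 1.38 under Mbd3 KD, at 2.02 and 1.74 under Mbd2 KD, at 1.89 and 1.77 in Dnmt1 KD, and at 2.19 and 1.79 in Tet1 KD. The Chd4 KD arrays were the lowest of the 12, and the other 10 overlapped. Phlda2 fell by 1.28 on the log2 scale in Chd4 KD (SE 0.22, limma adjusted p = 0.031), to 0.411 of the control level. With slide as a block the change was -1.11 (adjusted p = 0.04), and within the slide that held EGFP KD and Chd4 KD it was -0.97. The direct comparison of Chd4 KD with Mbd3 KD gave a log2 difference of -1.24 (adjusted p = 0.056), which did not pass the test but did with replicate number as a block. The call was kept in 12 of 24 alternatives, with log2 fold changes between -1.45 and -1.11. It was lost without either array of EGFP KD, Dnmt1 KD, Mbd2 KD or Chd4 KD, with adjusted p between 0.051 and 0.19, and without replicate 1 of Tet1 KD and Mbd2 KD together (adjusted p = 0.081).

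Some markers of other cell types were called in Mbd3 KD and Chd4 KD. The summed scaled signal of 8 trophoblast markers was 6.91 to 7.59 in EGFP KD, 11.5 to 11.8 in Mbd3 KD and 14.2 to 14.9 in Chd4 KD, and between 6.68 and 8.12 in the other groups. Tfap2c and Krt18, the brightest of the 8, made up most of these sums. In Mbd3 KD 5 of the 8 lay above EGFP KD and 3 below, and in Chd4 KD 7 lay above and 1 below. Without passing the test, Hand1 differed by -1.05 and Krt8 by 0.87 in Mbd3 KD (limma adjusted p = 0.25 and 0.38). Tfap2c rose in both Mbd3 KD (0.80, limma adjusted p = 0.044) and Chd4 KD (1.05, adjusted p = 0.0066), Krt18 rose in Chd4 KD (1.18, adjusted p = 0.02) and Gata3, whose levels lay between -4.86 and -3.59, fell by 0.86 in Mbd3 KD (adjusted p = 0.035). Cdx2 and Elf5 lay at or near the lowest level in every group, between -4.86 and -4.28. Eomes was well above background on every array. It differed by 0.18 in Mbd3 KD and by 0.43 in Chd4 KD, and Hand1 differed by 0.55 in Chd4 KD. None of these passed (limma adjusted p = 0.95, 0.83 and 0.58). The 5 fibroblast markers summed to 4.65 to 4.9 in EGFP KD, 9.12 to 9.4 in Mbd3 KD and 9.16 to 11.6 in Chd4 KD, and to 6.4 to 6.78 under Dnmt1 KD, 5.47 to 5.79 under Tet1 KD and 4.83 to 5.66 under Mbd2 KD. Thy1, the brightest of the 5, made up most of these sums. Of these 5, Thy1 rose in Mbd3 KD and Chd4 KD (1.28 and 1.42, adjusted p = 0.011 and 0.002) and Col1a1 in Chd4 KD (2.49, adjusted p = 0.002). Col1a2, Dcn and Lum did not pass and lay below EGFP KD, at -0.23, -0.65 and -1.0 in Mbd3 KD and -0.02, -0.51 and -1.07 in Chd4 KD. None of 7 primitive endoderm or 5 neural markers was called in these KDs by limma, although 2 and 3 of the primitive endoderm markers had an unadjusted p under 0.05 in Mbd3 KD and Chd4 KD. The part of these shifts in the levels of Slc22a18 and Phlda2 was not tested.

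**Figure D2:**
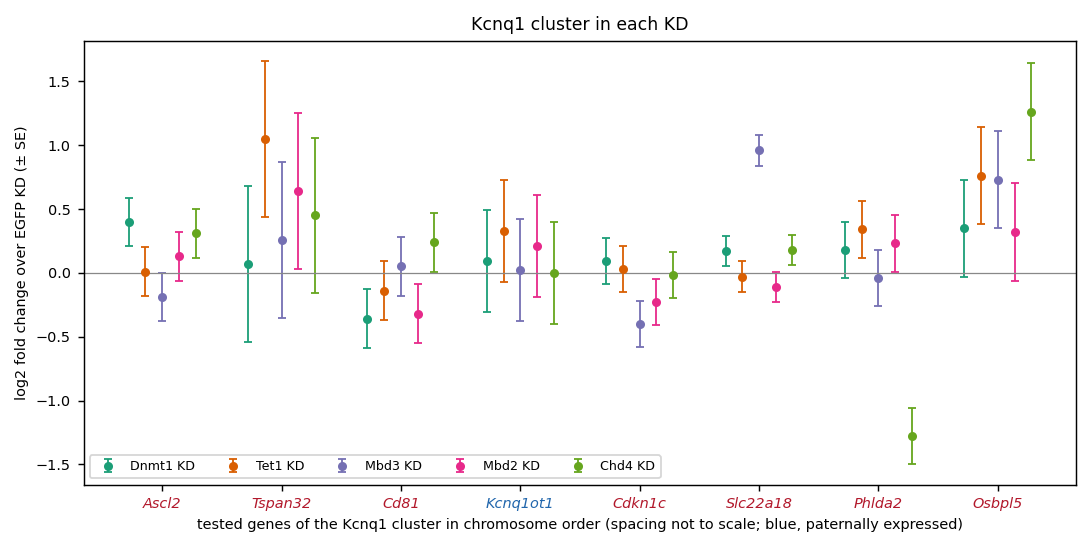
Log2 fold change over EGFP KD with its SE (limma, 2 arrays per group) for the 8 tested genes of the Kcnq1 cluster in chromosome order (RefSeq, GRCm38.p6), with a colour for each KD. Slc22a18 lay apart from 0 in Mbd3 KD (0.96) and Phlda2 in Chd4 KD (-1.28), and Kcnq1ot1 stayed within 1 SE of 0 in each KD.

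The other genes of the cluster did not pass the test in any KD without a block. Kcnq1ot1, the paternally expressed noncoding RNA that silences the cluster on its own chromosome, had log2 fold changes between -0.00 (Chd4 KD) and 0.33 (Tet1 KD), each with an SE of 0.40. Cdkn1c, an inhibitor of cyclin-dependent kinases, differed by -0.40 in Mbd3 KD (SE 0.18, adjusted p = 0.54). Ascl2, a transcription factor of trophoblast, differed by 0.40 in Dnmt1 KD (SE 0.19, adjusted p = 0.94) and by 0.31 in Chd4 KD (SE 0.19, adjusted p = 0.64), and it was called in Chd4 KD with slide as a block. Osbpl5, a lipid transfer protein, had log2 levels of -0.03 and 0.14 in Chd4 KD and of -1.58 and -0.83 in EGFP KD. Osbpl5 lay at -0.66 and -0.29 (Mbd3 KD), -1.04 and -0.73 (Mbd2 KD), -0.56 and -0.34 (Tet1 KD) and -1.38 and -0.33 (Dnmt1 KD) otherwise. Its Chd4 KD arrays were the highest of the 12, and the EGFP KD arrays lay 0.75 apart (SD 0.53). Osbpl5 had a log2 fold change of 1.26 (SE 0.38, adjusted p = 0.18) in Chd4 KD, or 0.80 within the shared slide, and it was called there with replicate number as a block (adjusted p = 0.041). In Tet1 KD it differed by 0.76 (SE 0.38, adjusted p = 1), by 0.38 within the shared slide and by 0.86 without replicate 1, and leaving out 1 control array gave 0.38 or 1.13.

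The cluster also holds genes for tetraspanins, a family of membrane proteins. Cd81 ranged between -0.36 (Dnmt1 KD) and 0.24 (Chd4 KD) in log2 fold change, with an SE of 0.23. Tspan32 had log2 levels of 1.08 and 0.98 in Tet1 KD, 0.37 and 0.86 under Mbd2 KD, 0.30 and -0.34 under EGFP KD, 0.24 and 0.62 under Chd4 KD, -0.43 and 0.90 under Mbd3 KD and -0.75 and 0.85 under Dnmt1 KD. The Tet1 KD arrays were the highest of the 12, and the replicates of Mbd3 KD and Dnmt1 KD lay on both sides of the control arrays. Its log2 fold change was 1.05 in Tet1 KD and 0.64 in Mbd2 KD (SE 0.61 and adjusted p = 1 in both). Without replicate 1 it was 1.00 and 0.88. The other Tspan32 probes gave 1.03 and 0.05 in Tet1 KD, so the probes differed.

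The Dlk1-Dio3 cluster on chromosome 12 encodes growth regulators on the paternal chromosome and noncoding RNAs on the maternal one. Dlk1, a membrane protein related to Notch ligands, had log2 levels of -0.30 and 0.10 in Dnmt1 KD and of -0.78 and -0.80 in EGFP KD. Its levels were -1.06 and -0.98 in Mbd3 KD, -1.02 and -1.05 in Chd4 KD, -0.68 and -0.77 under Mbd2 KD, and -0.71 and -0.58 under Tet1 KD. The Dnmt1 KD arrays were therefore the highest of the 12 and the Mbd3 KD and Chd4 KD arrays the lowest. The log2 fold changes over EGFP KD were 0.69 in Dnmt1 KD (SE 0.13, limma adjusted p = 0.38), -0.23 in Mbd3 KD (adjusted p = 0.72) and -0.24 in Chd4 KD (adjusted p = 0.58), none of which passed the test. The contrast of Mbd3 KD with Dnmt1 KD did pass, with a log2 difference of -0.92 (SE 0.13, adjusted p = 0.041). It was lost when any single array other than Dnmt1 KD replicate 1 was left out. Within the slide that held all 3 groups, Dlk1 differed from EGFP KD by 0.48 in Dnmt1 KD and by -0.28 in Mbd3 KD. A dimmer Dlk1 probe gave 0.19 in Dnmt1 KD and -0.50 in Mbd3 KD. The contrast did not pass with quantile normalization, with slide as a block or in several other alternatives listed with the effects of processing.

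The maternally expressed RNAs of the same cluster were higher in Mbd3 KD without passing the test. Meg3, the noncoding RNA that marks the maternal chromosome, had log2 levels of 2.22 and 3.11 in Mbd3 KD, 2.07 and 2.84 in Chd4 KD, 1.72 and 2.51 under Mbd2 KD and 1.69 and 1.85 under EGFP KD. Meg3 lay at 1.97 and 1.68 under Tet1 KD and at 1.84 and 2.10 under Dnmt1 KD. Replicate 2 of Mbd3 KD, Mbd2 KD and Chd4 KD was higher than replicate 1 by more than the EGFP KD arrays were apart, and those replicates 2 lay on 1 slide without a control. Meg3 differed by 0.89 in Mbd3 KD (SE 0.40, adjusted p = 0.56), or 0.53 within the shared slide, and by 0.35 under Mbd2 KD (adjusted p = 1). In Mbd2 KD it was 0.74 without replicate 1 and -0.04 without replicate 2. The other kept Meg3 probes gave 0.34 and 0.09 in Mbd3 KD. Mirg, a host of microRNAs, differed by 0.52 in Mbd3 KD (SE 0.20, adjusted p = 0.43). Dio3, a deiodinase that inactivates thyroid hormone, differed by -0.91 in Dnmt1 KD (SE 0.41, adjusted p = 0.94), and Rtl1, a retrotransposon-derived gene of the placenta, lay between -4.86 and -3.94 on all 12 arrays.

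**Figure D3:**
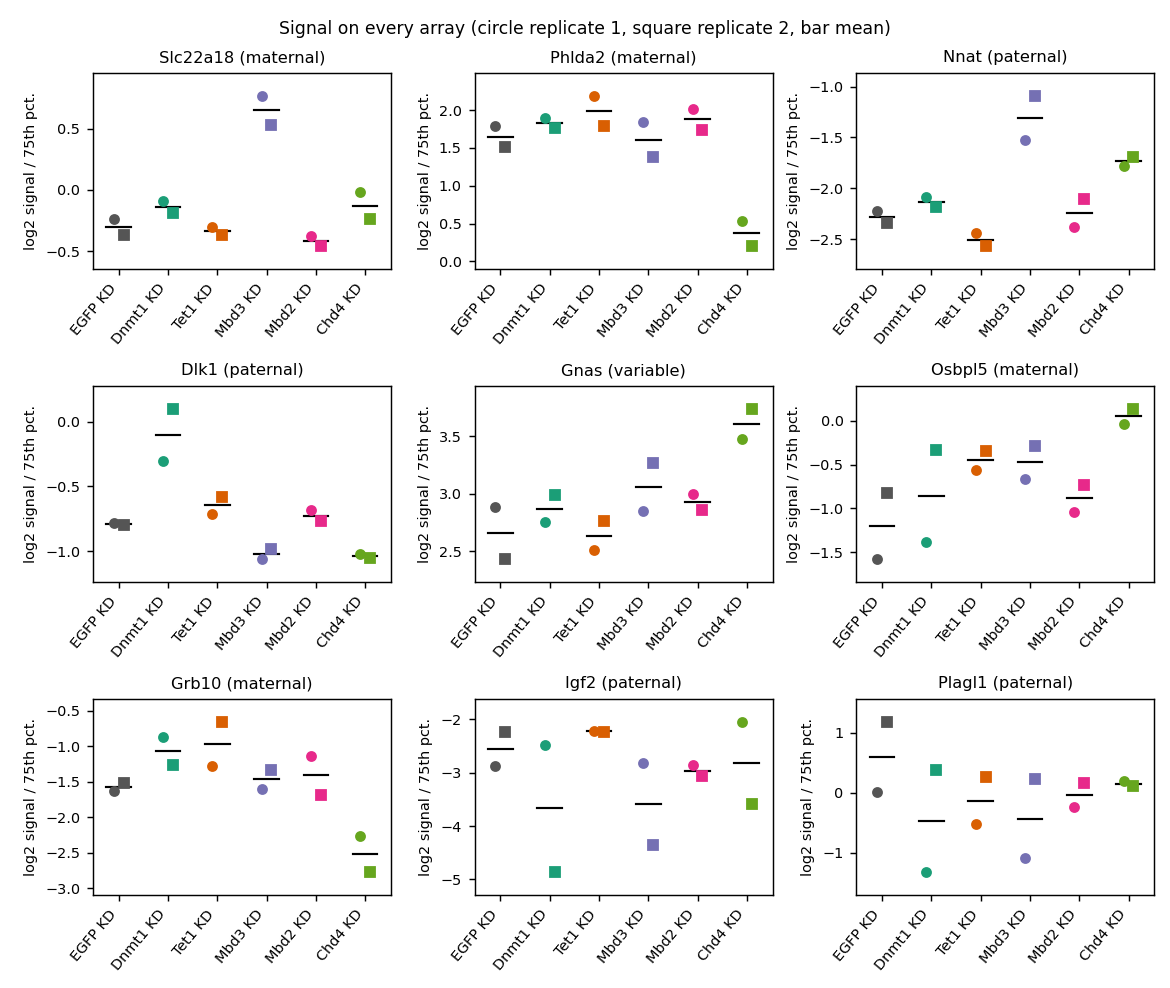
Log2 signal relative to the array's 75th percentile for 9 imprinted genes on each array, with circles for replicate 1, squares for replicate 2 and bars for the mean of 2 arrays. Slc22a18, Phlda2, Dlk1, Nnat and Grb10 each had a KD whose arrays lay apart from those of EGFP KD by more than its replicates differed, whereas replicates of Igf2 and Plagl1 in some groups differed by more than the group means.

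Imprinted regulators of growth and hormone signaling were examined next. Igf2, a fetal growth factor, had log2 levels of -2.88 and -2.23 in EGFP KD, -2.48 and -4.86 in Dnmt1 KD, and -2.82 and -4.35 in Mbd3 KD. Igf2 lay at -2.04 and -3.58 in Chd4 KD, -2.86 and -3.06 under Mbd2 KD, and -2.21 and -2.24 under Tet1 KD. The lowest 3 values were all replicates 2 on the slide without a control. The log2 fold change was -1.11 in Dnmt1 KD and -1.03 in Mbd3 KD (SE 0.88, adjusted p = 0.94 and 0.82), and within the shared slide it was 0.40 and 0.06. No change of Igf2 was therefore detectable beyond the spread of the arrays. Igf2r, the receptor that clears Igf2 and is maternally expressed, had log2 levels of 0.76 and 0.96 in Chd4 KD and of 0.34 and 0.40 in EGFP KD, and between 0.36 and 0.68 on the other 8 arrays. Its log2 fold change in Chd4 KD was 0.49 (SE 0.11, adjusted p = 0.082), and 0.36 within the shared slide. Airn, the noncoding RNA that overlaps Igf2r in the opposite direction, ranged from -0.67 (Mbd3 KD) to 0.49 (Tet1 KD) with an SE of 0.84. Whether the probes for Airn and Igf2r detect only their own strand was not tested.

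Grb10, an adaptor that dampens insulin and growth factor receptors, had log2 levels of -2.27 and -2.77 in Chd4 KD and of -1.63 and -1.51 in EGFP KD. Its levels were -1.60 and -1.33 under Mbd3 KD, -1.13 and -1.69 under Mbd2 KD, -0.87 and -1.26 in Dnmt1 KD and -1.27 and -0.65 in Tet1 KD. The Chd4 KD arrays were the lowest of the 12. Grb10 differed by -0.95 in Chd4 KD (SE 0.30, adjusted p = 0.2) and 0.51 in Dnmt1 KD (SE 0.30, adjusted p = 0.94), and within shared slides it was -0.76 and 0.77. Ddc, which makes dopamine and serotonin and adjoins Grb10, differed by 0.74 in Mbd3 KD (SE 0.35, adjusted p = 0.59). Its other kept probe, which was dimmer, gave 1.17 in Mbd3 KD. In Chd4 KD that probe gave 0.88, where the brighter probe gave 0.18.

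Gnas encodes the stimulatory G protein subunit and transcripts from promoters with different parental expression. Its log2 levels were 3.48 and 3.74 in Chd4 KD, 2.88 and 2.43 in EGFP KD, 2.85 and 3.27 in Mbd3 KD, 2.75 and 2.99 under Dnmt1 KD, 2.51 and 2.76 under Tet1 KD, and 3.0 and 2.86 under Mbd2 KD. The Chd4 KD arrays were the highest of the 12. The log2 fold change was 0.95 (SE 0.21, limma adjusted p = 0.072), 1.05 within the shared slide, and it passed the test only with quantile normalization (1.15, adjusted p = 0.042). The other kept probe, matched to another Gnas transcript, gave 0.60 in Chd4 KD and 1.31 in Dnmt1 KD, where the brighter probe gave 0.22.

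Nnat, a paternally expressed membrane proteolipid of the nervous system, had log2 levels of -1.52 and -1.09 in Mbd3 KD and of -2.22 and -2.34 in EGFP KD. It lay at -1.78 and -1.69 in Chd4 KD, -2.38 and -2.11 under Mbd2 KD, -2.09 and -2.18 under Dnmt1 KD, and -2.44 and -2.57 under Tet1 KD. The Mbd3 KD arrays were the highest and the Chd4 KD arrays next. The log2 fold change was 0.98 in Mbd3 KD (SE 0.16, limma adjusted p = 0.058) and 0.55 in Chd4 KD (SE 0.16, adjusted p = 0.17), so neither passed the test. Within the shared slides it was 0.70 in Mbd3 KD and 0.57 in Chd4 KD. With normexp background correction the change in Mbd3 KD was 0.13. A second Nnat probe, not used because a Chd4 KD array had no valid spot, had log2 levels of -1.05 and -0.72 in Mbd3 KD and of -1.63 and -1.30 in EGFP KD. Neural markers outside the list did not pass the test in Mbd3 KD (0 of 5, and 0 at an unadjusted limma p under 0.05).

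The Snrpn cluster, the mouse counterpart of the Prader-Willi and Angelman region, held no called gene. Snrpn, a spliceosomal protein, differed by 0.43 in Chd4 KD (SE 0.15, adjusted p = 0.24). In Dnmt1 KD its brightest probe gave -0.15, and the other kept probes gave 1.30 and -0.11. The Snrpn probe with 1.30 was dim, at -4.08 and -4.01 in EGFP KD. Ndn, a growth-suppressing MAGE protein, differed by 0.48 in Dnmt1 KD (SE 0.10, adjusted p = 0.46). The Ndn arrays of Dnmt1 KD (-1.40 and -1.44) were the highest of the 12, and those of EGFP KD (-1.86 and -1.94) the lowest. Magel2, another MAGE protein, had log2 levels of -0.14 and 0.20 in EGFP KD, -0.13 and -1.81 in Mbd2 KD, 0.11 and -0.77 in Mbd3 KD, and -0.13 and -1.12 in Chd4 KD. It lay at 0.13 and 0.41 under Tet1 KD and at -0.01 and -0.45 under Dnmt1 KD. Its log2 fold change of -1.0 in Mbd2 KD (SE 0.60, adjusted p = 1) came from replicate 2, since it was -1.84 without replicate 1 and -0.16 without replicate 2. Mkrn3, a RING-domain ubiquitin ligase, and Ube3a, a ubiquitin ligase that is maternally expressed in neurons, had log2 fold changes between -0.25 and 0.34 over the 5 KDs.

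At the Peg3 cluster, Peg3, a zinc finger protein of the paternal allele, had log2 levels of -2.35 and -2.36 in Tet1 KD, -1.98 and -1.57 in EGFP KD, -2.31 and -1.53 under Dnmt1 KD, -2.15 and -1.61 under Mbd3 KD, -1.97 and -1.55 under Mbd2 KD, and -1.64 and -1.77 under Chd4 KD. The Tet1 KD arrays were the lowest of the 12 by a small margin. Peg3 differed by -0.58 in Tet1 KD (SE 0.31, adjusted p = 1), and -0.59 without replicate 1. Usp29, a ubiquitin protease, lay at -1.69 and -0.69 in EGFP KD and at -1.30 and -3.38 in Dnmt1 KD. It lay at -1.38 and -2.29 under Mbd3 KD, -1.66 and -1.96 under Mbd2 KD, -0.80 and -0.74 under Tet1 KD, and 0.01 and -0.88 under Chd4 KD, so the lowest arrays were replicates 2 of Dnmt1 KD and Mbd3 KD. Its log2 fold change of -1.15 in Dnmt1 KD (SE 0.71, adjusted p = 0.94) was -2.19 without replicate 1 and -0.11 without replicate 2, and within the shared slide it was 0.39. Zim1, a maternally expressed zinc finger gene, had an unadjusted limma p under 0.05 in 3 KDs, with log2 fold changes of -0.57 for Mbd2 KD, -0.55 for Mbd3 KD and -0.48 for Chd4 KD (SE 0.14, adjusted p = 1, 0.21 and 0.18). Its levels ran from -4.86 to -3.99, so these differences lay between the control arrays (-4.36 and -4.13) and the lowest measurable level.

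The remaining genes are listed by cluster. Peg10, a retrotransposon-derived gene required for the placenta, ranged from -0.53 (Mbd3 KD) to 0.35 (Dnmt1 KD) in log2 fold change with an SE of 0.40. The other kept Peg10 probe gave -0.59 in Mbd3 KD (limma adjusted p over probes = 0.056) and -0.14 in Dnmt1 KD. Sgce, the adjoining epsilon-sarcoglycan, ranged from -0.09 to 0.33 with an SE of 0.13. Mest, a hydrolase-like protein of mesoderm, lay within -0.29 and 0.01, and its neighbour Copg2, a coatomer subunit, within -0.15 and 0.11. Zrsr1, a splicing factor-like gene within Commd1, lay within -0.05 and 0.26, and Commd1 itself within -0.24 and 0.06. Impact, a regulator of translation, lay within -0.29 and 0.09, Inpp5f, a phosphoinositide phosphatase, within -0.25 and 0.22, and Nap1l5, a nucleosome assembly protein-like gene at or near the lowest level on all arrays, within -0.23 and 0.34. Nap1l5 was not well above background on any array of Mbd3 KD or Mbd2 KD, and was so on only 1 of 2 EGFP KD arrays. Its EGFP KD levels were -4.86 and -4.40, so no fall could be measured in these KDs (limma adjusted p = 0.9 and 1). Plagl1, a zinc finger transcription factor, had log2 levels of 0.01 and 1.19 in EGFP KD, -1.32 and 0.38 under Dnmt1 KD, -1.09 and 0.23 under Mbd3 KD, -0.52 and 0.26 under Tet1 KD, -0.24 and 0.16 under Mbd2 KD, and 0.19 and 0.12 under Chd4 KD. Its log2 fold changes (-1.07, -1.03, -0.73, -0.64 and -0.45 in that order of KDs, SE 0.70) did not pass the test. Without replicate 1 they were -0.34 in Tet1 KD and -0.44 in Mbd2 KD. They were not shared by the other 3 kept probes, which gave between -0.21 and 1.02, so the direction of Plagl1 depended on the probe.

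**Figure D4:**
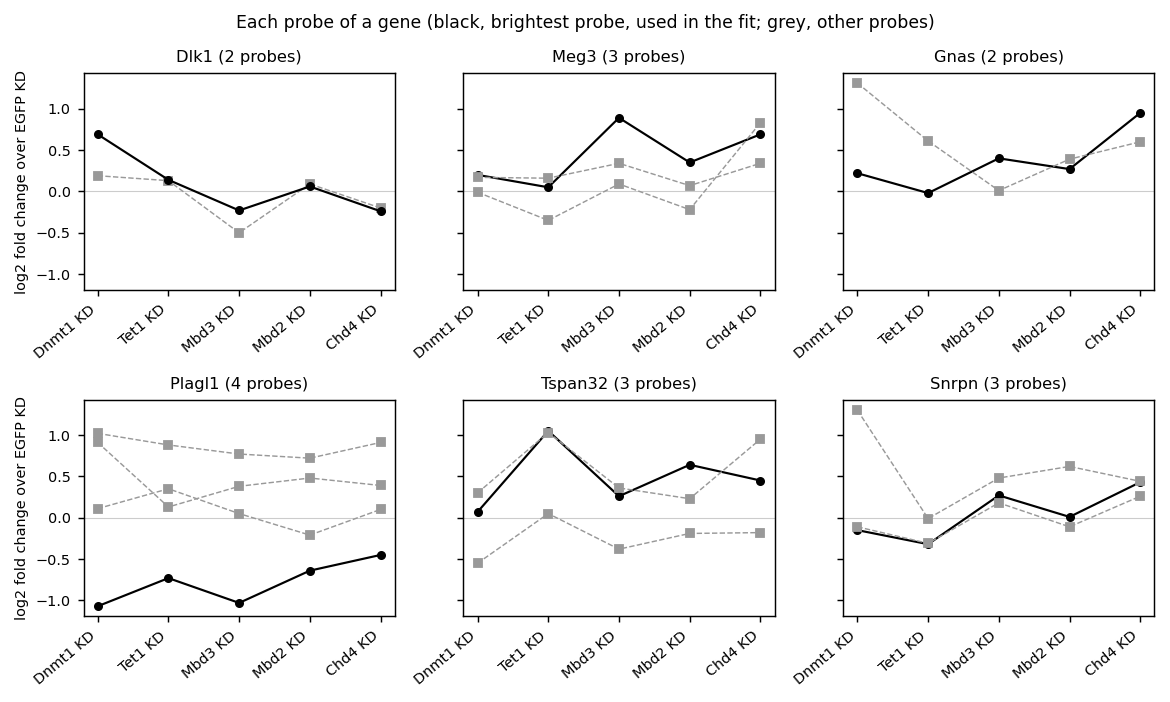
Log2 fold change over EGFP KD for each kept probe of 6 imprinted genes with several probes, with the brightest probe, used for the tests, in black and the others in grey. The Dlk1 probes ran the same way in each KD, whereas the brightest Plagl1 probe lay below 0 in all 5 KDs and 2 of its other probes above 0.

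Part of the imprinted genes differed between slides. Dnmt1 KD, Mbd3 KD and Mbd2 KD each had 1 array on slide 1 with EGFP KD replicate 1 and the other on slide 3. Of the 38 genes, 16 were higher and 9 were lower on slide 3 in all 3 KDs, which is 65.8% and compares with 58.6% of all genes tested. Airn was higher on slide 3 by 1.76, 2.17 and 1.06 in Dnmt1 KD, Mbd3 KD and Mbd2 KD, and Mkrn3 by 1.25, 0.83 and 0.93. Slide 3 minus slide 1 was -2.38, -1.54 and -0.20 for Igf2, in the same order, and Usp29 differed by -2.08, -0.91 and -0.30. Slc22a18 differed between these slides by -0.10, -0.24 and -0.07.

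Grouped by parental expression, the paternally and maternally expressed genes had medians between -0.20 and 0.25. In Dnmt1 KD the median log2 fold change was -0.14 over the 21 paternally expressed genes and 0.13 over the 12 maternally expressed genes, with -0.01 over all genes tested. Mbd3 KD gave medians of -0.20 and 0.08 (all genes -0.03), and Chd4 KD gave -0.03 and 0.25 (all genes 0.00). They were 0.22 and 0.12 for Tet1 KD (all genes 0.09) and 0.01 and 0.09 for Mbd2 KD (all genes -0.00). The paternally expressed genes with a value above 0 numbered 6 of 21 in Dnmt1 KD, where 48.1% of all genes lay above 0, 8 each in Mbd3 KD (46.1%) and Chd4 KD (51.3%), 11 under Mbd2 KD (49.2%) and 14 under Tet1 KD (65.4%). Of the 12 maternally expressed genes, 9, 8, 8, 7 and 10 did so in the same order. The paternal median minus the maternal median was -0.28 in Chd4 KD, -0.27 in both Mbd3 KD and Dnmt1 KD, -0.09 in Mbd2 KD and 0.10 in Tet1 KD. These differences depended on single arrays. Without EGFP KD replicate 2 they were -0.04 for Chd4 KD and Mbd2 KD, -0.06 for Mbd3 KD, -0.08 for Dnmt1 KD and 0.23 for Tet1 KD. Without EGFP KD replicate 1 they were -0.47 in Chd4 KD, -0.18 in Mbd2 KD and -0.07 in Tet1 KD. Of the KD arrays, leaving out replicate 1 gave -0.17 for Chd4 KD, -0.06 for Mbd3 KD, -0.16 for Dnmt1 KD and 0.04 for Mbd2 KD, and leaving out replicate 2 gave -0.01 in Dnmt1 KD, -0.14 in Mbd2 KD and -0.06 in Tet1 KD. The sign in Tet1 KD also turned with the scaling, to -0.11 with quantile normalization and -0.35 with normexp background correction. Both Chd4 KD arrays lay outside the EGFP KD range for 10 of the 12 maternally expressed genes (83.3%), 7 higher and 3 lower. The same held for 6 of the 21 paternally expressed genes (28.6%) and for 38.1% of all genes. In the other KDs the maternal share was 58.3% for Mbd3 KD, 50% for Tet1 KD, 41.7% for Dnmt1 KD and 33.3% for Mbd2 KD. The paternal shares were 28.6%, 33.3%, 23.8% and 9.52% in the same order. Over all genes the shares were 30.1%, 35.3%, 21.1% and 22.9%.

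**Figure D5:**
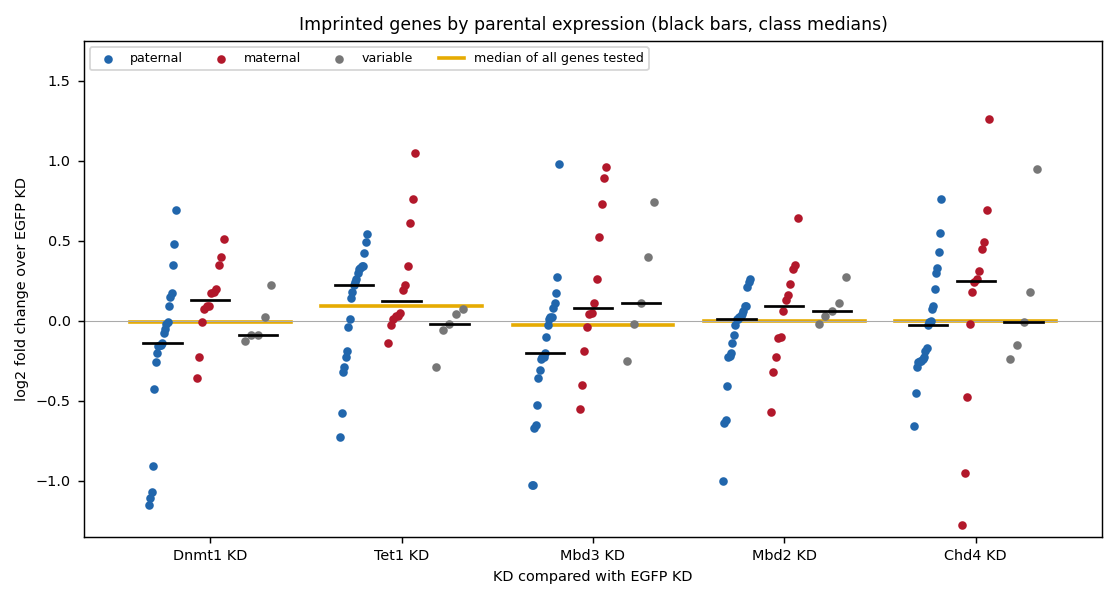
Log2 fold change over EGFP KD in each KD for the 21 paternally expressed (blue), 12 maternally expressed (red) and 5 variable (grey) genes, with black bars for the class medians and a yellow bar for the median of all 29546 genes tested. The class medians lay between -0.20 and 0.25 and the medians of all genes between -0.03 and 0.09, and single genes lay farther out.

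Other imprinted genes and factors that maintain imprints gave few calls. Of 41 further imprinted genes that could be tested out of 44 listed, 1 was called, and only in Chd4 KD, which was the X-linked gene Xlr3b. Its log2 levels were -0.69 and -0.31 in Chd4 KD and -1.61 and -1.75 in EGFP KD (log2 fold change 1.18, SE 0.16, limma adjusted p = 0.011), and its copies on the X chromosome may share the probe. In this male line the only X chromosome is the maternal one, so Xlr3b has no paternal copy. At an unadjusted p under 0.05 these genes numbered 8 for Chd4 KD (12.8% of all genes), 7 for Mbd3 KD (9.66%), 6 for Dnmt1 KD (4.67%), 6 for Tet1 KD (2.85%) and 3 for Mbd2 KD (2.06%). Of 30 factors with a role in imprint maintenance or DNA methylation, such as Zfp57 and Uhrf1, only the targeted Mbd3 and Chd4 were called against EGFP KD, each in its own KD. Trim28 and Dnmt3l were saturated on all 12 arrays, so their levels could not be compared. Zfp42 was saturated on every array but 1 of Chd4 KD. Dppa3, which protects maternal methylation in the zygote, differed by -0.99 in Mbd3 KD (adjusted p = 0.058) and was higher in Chd4 KD than in Mbd3 KD by 1.03 (adjusted p = 0.036).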

How the data were processed

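RNA of E14 ES cells was labelled with Cy3 and hybridised to 12 one-colour Agilent arrays (6 groups, 2 arrays per group, 48 hr after transfection). The deposited intensity values are background-corrected processed signals that the authors obtained with Agilent Feature Extraction 10.7.1.1, as named in the submitters' processing notes, without normalization between arrays. A further table, deposited by the authors, gives 12459 probes as log2 values against EGFP KD, with scale and centring unstated. It covered 19 of the tested genes, its column medians lay between -0.006 and 0.006, its columns correlated with the values used here at 0.648 to 0.927, and it was used for direction only.

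Control spots (1377) and outlier spots were left out of the 43020 other spots, and spots of 1 probe were averaged. Signals were divided by the 75th percentile of the array, set to at least 0.0344, and taken as log2. Of 39429 probes, 35690 had a value on every array and passed the background flag on both arrays of some group (469 probes without one were dropped). Probes were named through the RefSeq table of GRCm38.p6, which named 71.4% of spots, and the brightest probe stood for a gene, giving 29546 genes, 19219 with a symbol. With limma 3.58.1 (R 4.3.3), a linear model was fitted over all 12 arrays, with moderated tests of each KD against EGFP KD and of 3 pairs of KDs. Calls used a Benjamini-Hochberg adjusted p under 0.05 over all genes. The test was first run on simulated data with independent noise on each array. Those data lacked the correlation between same-numbered arrays seen here, so that run could not check the calls. The 2 arrays per group limit the precision, and p-values measure the spread between these arrays.

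Values on every array are given for those of the 38 genes called in any KD and for the 2 largest rises and 2 largest falls in each KD, and other genes given so were chosen after their values were seen. The genes and lists were chosen with earlier results of these data known. Alternatives were quantile normalization, normexp background correction with an offset of 50, other filters on dim probes, a lower floor, the mean of a gene's probes, slide or replicate number as a block, the 4 arrays of a comparison alone, a trended and robust variance prior, array weights, and leaving out each array. Leaving out Tet1 KD replicate 1 and Mbd2 KD replicate 1 together was chosen after seeing the data.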

Additional observations from a re-analysis of the deposited data

Results flagged for a closer look

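For 2 imprinted genes the effects of KDs differed in a direct limma test. Slc22a18 was lower in Chd4 KD than in Mbd3 KD, with a log2 difference of -0.78 (SE 0.12, adjusted p = 0.031). It was higher in Mbd3 KD than in Mbd2 KD by 1.07 (adjusted p = 0.021) and than in Dnmt1 KD by 0.79 (adjusted p = 0.045). Dlk1 differed between Mbd3 KD and Dnmt1 KD by -0.92 (SE 0.13, adjusted p = 0.041), with the lower level in Mbd3 KD. The Slc22a18 differences of Mbd3 KD from Chd4 KD and Dnmt1 KD were lost whichever array was left out, and that from Mbd2 KD without any of 7 arrays. The Dlk1 difference was lost when any array but Dnmt1 KD replicate 1 was left out, with quantile normalization, slide as a block or array weights, and under other alternatives. Each group had 2 arrays, so no single array could be tested as lying apart from its group.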

How the results depend on the processing

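The numbers of imprinted genes called for Tet1 KD, Mbd2 KD and Dnmt1 KD were 0 under each alternative that used adjusted p. In Mbd3 KD the number called was 0 with normexp, with probes well above background on all arrays, with the lower floor, with only the 4 arrays of the comparison, with the trended and robust prior, and without Tet1 KD replicate 1 and Mbd2 KD replicate 1. In Chd4 KD it was 2 with quantile normalization (Gnas and Phlda2) and with slide as a block (Ascl2 and Phlda2), and 0 with normexp, with the lower floor, with only the 4 arrays, and without that pair of arrays. At an unadjusted p under 0.05 the numbers were 9 for Chd4 KD (12.8% of all genes), 4 for Mbd3 KD (9.66%), 2 for Dnmt1 KD (4.67%) and 1 for Mbd2 KD (2.06%). Leaving out 1 array at a time gave 0 to 1 called genes in Mbd3 KD and in Chd4 KD. The number differing between Chd4 KD and Mbd3 KD was 0 with normexp, the all-arrays filter, the lower floor, only 4 arrays, the trended prior or without the pair, and 0 whichever array was left out. Between Mbd3 KD and Mbd2 KD it was 0 with normexp, the lower floor, only 4 arrays or without the pair, and 0 to 1 with 1 array left out. Between Mbd3 KD and Dnmt1 KD it was 1 with slide as a block (Slc22a18), 0 with quantile normalization, normexp, the all-arrays filter, the lower floor, only 4 arrays, the trended prior, array weights or without the pair, and 0 to 1 with 1 array left out.

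The paternal minus maternal median with normexp was -0.70 for Chd4 KD, -0.59 for Mbd3 KD, -0.43 for Mbd2 KD, -0.41 for Dnmt1 KD and -0.35 for Tet1 KD. It was -0.16 in Dnmt1 KD with the mean of probes, -0.11 in Tet1 KD and -0.44 in Chd4 KD with quantile normalization, and -0.39 in Chd4 KD with slide as a block. With 1 array left out it ran from -0.47 to -0.04 for Chd4 KD, from -0.39 to -0.06 for Mbd3 KD, from -0.35 to -0.01 for Dnmt1 KD, from -0.18 to 0.04 for Mbd2 KD and from -0.07 to 0.23 for Tet1 KD, and without the pair it was 0.13 in Tet1 KD and 0.04 in Mbd2 KD. Igf2 in Dnmt1 KD ran from -2.31 to 0.08 and Meg3 in Mbd2 KD from -0.04 to 0.74 with 1 array left out. With the mean of its probes, Plagl1 was 0.16 in Tet1 KD, 0.04 in Mbd3 KD and 0.09 in Mbd2 KD. Of 190 fold changes (38 genes in 5 KDs), the direction turned for 52 with normexp, 44 with slide as a block, 31 without EGFP KD replicate 2, 30 without EGFP KD replicate 1, 19 with the mean of probes and 17 with quantile normalization. The cause of these changes was not tested.

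Replicate numbers were shared by the groups, and with 2 pairs per comparison they were not treated as pairs. The deviations of same-numbered EGFP KD and KD arrays correlated at 0.383 for Dnmt1, 0.141 for Tet1, 0.295 for Mbd3, 0.507 for Mbd2 and -0.034 for Chd4. Between KDs they correlated at 0.767 for Dnmt1 with Mbd3, 0.708 for Dnmt1 with Mbd2 and 0.638 for Mbd3 with Mbd2, whose replicates 1 shared a slide and whose replicates 2 shared another, at 0.394 to 0.484 for Chd4 with these, and at -0.042 to 0.027 for Tet1 with the other KDs. With the replicate number as a block, 2 genes were called in Chd4 KD (Osbpl5 and Phlda2), 2 differed between Chd4 KD and Mbd3 KD (Phlda2 and Slc22a18), and 0 of the 190 directions turned.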
